A study of Mus musculus with 7 samples.

Results

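The genes of glycolysis and of the hypoxia response were followed in RNA-seq of the mouse embryonic outflow tract (OFT), the vessel that joins the ventricles to the aortic arch arteries. They were the 40 gene symbols of a list written for glycolysis and for hypoxia-inducible factor (HIF) targets, and all 40 were found among the 14732 genes of the expression table. The 24 glycolytic members comprised 16 enzymes, 4 glucose and lactate transporters and 4 kinases that set the flux into or out of the pathway. The 16 other members comprised 2 HIF alpha subunits, 2 oxygen-sensing prolyl hydroxylases and 12 further HIF targets.

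OFTs were dissected at embryonic day (E) 11.5 from C57BL/6 mouse embryos of 2 genotypes, without any treatment. Gata6STOP/+ embryos are germline heterozygotes for a CRISPR-Cas9 frameshift that puts a premature stop codon in Gata6, which encodes a GATA transcription factor, so every cell of the embryo carries 1 mutant allele. WT embryos carry none. Each library is a pool of OFTs from several embryos, with 3 WT pools (replicates 3, 4 and 5) and 4 Gata6STOP/+ pools (replicates 1, 3, 4 and 5), and a pool is the unit of replication throughout. The comparison asks what losing 1 functional Gata6 allele does to these transcripts in the whole OFT.

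Glycolysis splits glucose into pyruvate, which lactate dehydrogenase can turn into lactate so that the pathway continues without oxygen. HIF is a pair of proteins, of which the alpha subunit is marked for destruction by prolyl hydroxylases while oxygen is present. When oxygen is short the alpha subunit persists and binds a short core motif beside genes for glucose uptake, glycolysis, vessel growth and mitophagy. Oxygen control of the alpha subunit acts on the protein, so its mRNA is not a measure of HIF activity. The early embryo develops at low oxygen, and the embryonic heart is known for its use of glycolysis.

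The values are read counts scaled to a common library size (CPM), which the authors normalised by the trimmed mean of M values, and the reads behind them numbered 17783655 to 34467710 per pool. Gata6 itself was at 315.3, 257.4 and 285.9 CPM in WT replicates 3, 4 and 5. It was at 268.4, 202.8, 218.8 and 216.8 CPM in the pools labelled Gata6STOP/+ replicates 1, 3, 4 and 5, and the first of these lies inside the WT range. The mean of the mutant pools was 79.2% of WT (limma, adjusted P=0.389). Transcripts of cardiomyocytes, smooth muscle and endothelium were all present, and summed CPM of 9 erythroid markers ranged from 2495 in WT replicate 4 to 7675 in Gata6STOP/+ replicate 5. Of 5 pharyngeal epithelium markers, Epcam, Cdh1 and Pax9 were not listed. These libraries come from whole tissue, so fewer cells of a type and less RNA per cell cannot be told apart.

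The promoter sequences of 6 members are shown because the HIF core motif is the sequence feature known to link the glycolytic genes to the other HIF targets. The 6 are Hif1a, Ankrd37 and Ldhb, which had the smallest unadjusted P-values between genotypes, and Slc2a1, Bnip3 and Ldha, which stand for glucose uptake, mitophagy and lactate production. They were chosen after their values were seen. The sequences come from RefSeq on GRCm38.p6 and run 5′ to 3′ on the strand of the gene up to the RefSeq start, or just short of it for Slc2a1. Capitals mark the core ACGTG or GCGTG on either strand, which includes the palindrome CACGTG that MYC-family factors also bind.
Hif1a: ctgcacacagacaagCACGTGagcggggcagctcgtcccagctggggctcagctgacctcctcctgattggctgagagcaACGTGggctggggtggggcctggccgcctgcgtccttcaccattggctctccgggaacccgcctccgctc
Ankrd37: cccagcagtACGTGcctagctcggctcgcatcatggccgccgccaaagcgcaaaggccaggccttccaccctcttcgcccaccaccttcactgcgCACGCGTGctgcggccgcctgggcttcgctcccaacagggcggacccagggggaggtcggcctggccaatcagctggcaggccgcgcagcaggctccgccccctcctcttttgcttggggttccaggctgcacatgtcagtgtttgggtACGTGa
Ldhb: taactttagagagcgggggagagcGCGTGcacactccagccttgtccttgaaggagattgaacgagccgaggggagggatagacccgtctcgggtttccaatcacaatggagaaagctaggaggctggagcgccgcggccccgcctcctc
Slc2a1: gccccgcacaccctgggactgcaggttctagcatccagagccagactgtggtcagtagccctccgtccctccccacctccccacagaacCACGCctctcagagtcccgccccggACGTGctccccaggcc
Bnip3: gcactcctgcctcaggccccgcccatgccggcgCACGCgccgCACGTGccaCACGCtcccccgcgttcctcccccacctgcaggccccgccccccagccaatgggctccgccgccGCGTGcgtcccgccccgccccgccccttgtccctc
Ldha: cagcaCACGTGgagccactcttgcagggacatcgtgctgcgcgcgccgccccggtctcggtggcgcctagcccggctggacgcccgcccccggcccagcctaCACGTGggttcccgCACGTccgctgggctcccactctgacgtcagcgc
The windows lie at chr12:73907717-73907866 (plus strand) for Hif1a, chr8:45999851-46000100 (minus strand) for Ankrd37 and chr6:142507958-142508107 (minus strand) for Ldhb. Those of Slc2a1, Bnip3 and Ldha lie at chr4:119108595-119108724 (plus strand), chr7:138909507-138909656 (minus strand) and chr7:46845654-46845803 (plus strand). Capital stretches, in which adjoining motifs are merged, number 2 for Hif1a, 3 for Ankrd37, 1 for Ldhb, 2 for Slc2a1, 4 for Bnip3 and 3 for Ldha.

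A RefSeq promoter window, from 250 bases before to 50 bases after a start, was held for 36 of the 40 members. The 4 without one were Slc2a3, Epas1, Bnip3l and Ndrg1. At least 1 core motif stood in a window of 34 of these 36 members (94.4%), against 7282 of 10852 listed genes with a window (67.1%) and 12628 of 27025 genes in all (46.7%). Members had more alternative starts than other genes, so the share was also taken over single windows, where it was 43 of 54 (79.6%) for members and 8483 of 13897 (61.0%) for listed genes. Among genes with 1 window it was 22 of 24 members (91.7%) and 5529 of 8650 listed genes (63.9%). The core was found in 21 of 23 glycolytic members and in 13 of 13 other HIF members. The glycolytic enzymes Gpi1 and Tpi1 were the members whose windows lacked these letters. A match is a description of the letters, and no test was made on it because most members were listed as HIF targets to begin with.

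Levels can be compared between genes only per length, and CPM was therefore divided by the merged exon length in kb. That length counts every annotated exon of a gene, such as 4.133 kb for Gapdh and 13.401 kb for Pfkp. It can exceed the length of the transcripts present, which lowers the value, so the order of genes below depends on the annotation. On that scale the 7 most abundant members were all glycolytic enzymes. Aldoa, the aldolase that splits the 6-carbon sugar, was at 556 ± 67.4 CPM per kb (SD, n = 7 pools), Ldha, which makes lactate, at 534 ± 57.8 and Pgk1, the first ATP-yielding step, at 520 ± 44.3. The SDs of these 3 overlap, but they were taken over the same pools and do not test the order of the 3. Pkm, which makes pyruvate, was at 375 ± 34.0 CPM per kb, Tpi1 at 359 ± 33.4, Pgam1 at 358 ± 31.9 and Eno1 at 308 ± 28.1. Gapdh, often used as a reference gene, was at 206 ± 26.4 CPM per kb and the brain-type aldolase Aldoc at 3.23 ± 0.567. The hexokinases and phosphofructokinases, which commit glucose to the pathway, ranged from 26.4 ± 3.13 (Pfkp) to 57.6 ± 5.94 (Pfkl).

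Among the transporters, the glucose carrier Slc2a1 (GLUT1) was at 212 ± 33.5 CPM per kb and Slc2a3 (GLUT3) at 16.8 ± 2.53. The lactate carriers Slc16a3 (MCT4) and Slc16a1 (MCT1) were at 61.7 ± 7.14 and 21.7 ± 2.64 CPM per kb. Of the HIF alpha subunits, Hif1a was at 54.2 ± 4.40 and Epas1, which encodes HIF-2 alpha and is known from endothelium, at 6.48 ± 0.862 CPM per kb. Egln1 (PHD2), the main oxygen sensor, was at 50.9 ± 5.06 and its HIF-inducible relative Egln3 (PHD3) at 8.35 ± 1.79 CPM per kb. The mitophagy receptor Bnip3 led the other HIF targets at 106 ± 15.8 CPM per kb, ahead of its relative Bnip3l at 46.9 ± 2.498 and the angiogenic factor Vegfa at 33.4 ± 3.82. Ankrd37 (5.44 ± 0.848), the vasodilator peptide gene Adm (4.67 ± 0.947) and the stress gene Ndrg1 (2.35 ± 0.298) were the least abundant of that group. Pfkfb4, which makes the activator of phosphofructokinase, was the lowest of the 40 members at 1.002 ± 0.190 CPM per kb.

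**Figure D1:**
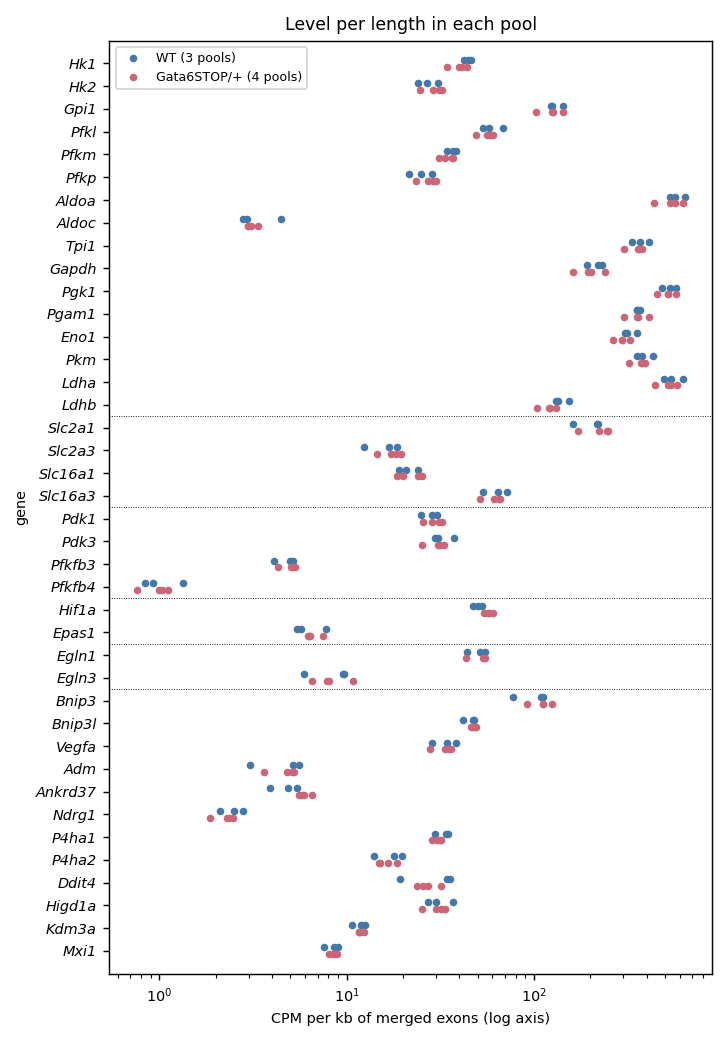
CPM per kb of merged exons (log axis) for each of the 40 members, with 1 point per pool, WT in blue and Gata6STOP/+ in red; dotted lines separate the 6 member groups. Points of 1 gene lie close together beside the span between genes, from 1.002 CPM per kb on average for Pfkfb4 to 556 for Aldoa, and the 2 genotypes overlap for nearly all genes.

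The balance between isoenzymes was close to constant over the 7 pools for some families and varied for others. Each share rests on the merged exon lengths and carries their uncertainty. Without division by length, for example, Pfkp was at 335 CPM and Pfkl at 399 CPM on average in WT. Aldoa made up at least 99.3% of aldolase transcripts per length (Aldoa and Aldoc), and Slc2a1 92.1 to 93.1% of the 2 glucose carriers. Hif1a made up 87.2 to 90.4% of the 2 alpha subunits and Egln1 83.4 to 88.1% of the 2 hydroxylases. Ldha, the muscle-type subunit, made up 82.3, 76.1 and 80.6% of lactate dehydrogenase transcripts in WT replicates 3, 4 and 5 and 81.0 to 81.9% in the mutant pools, so WT replicate 4 stood alone. Pdk1, a HIF-inducible kinase that keeps pyruvate out of mitochondria, likewise made up 39.99% of the Pdk1 and Pdk3 pair in WT replicate 4 and 48.3 to 50.3% in the 6 others. Slc16a1 made up 31.0% of the 2 lactate carriers in WT replicate 4 and 21.1 to 28.3% in the 6 others. Pfkfb3 made up 79.5 to 87.0% of its pair with Pfkfb4, and Bnip3 64.8 to 71.9% of its pair with Bnip3l. Hk1 made up 62.0 ± 2.57% of hexokinase transcripts in WT (SD, n = 3) and 57.6 ± 2.02% in Gata6STOP/+ (SD, n = 4), with overlapping pools. Pfkp, the platelet-type phosphofructokinase, made up 20.6 ± 1.33% of the 3 phosphofructokinases in WT (SD, n = 3) and 23.3 ± 0.958% in Gata6STOP/+ (SD, n = 4), and the pools did not overlap. That share was singled out from those of all these families after the values were seen and was not tested. Among the CPM values of all genes, pools of the 2 genotypes did not overlap for 8.47%.

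None of the 40 members passed an adjusted P-value of 0.05 between Gata6STOP/+ and WT in limma, and no gene of the table did either (0% of 14732). By the unadjusted P-value, 3 members were under 0.05 (7.5%), against 8.06% of all genes. The pools of the 2 genotypes did not overlap for 2 members (5.0%), against 8.47% of all genes. Both were higher in every mutant pool (background 4.31%), and no member was lower in every mutant pool (background 4.16%). The shares among members are therefore near the background. The smallest adjusted P among members was 0.466, for Hif1a. No member passed in edgeR's quasi-likelihood test, edgeR's likelihood ratio test or DESeq2 either, which called 0, 105 and 88 genes of the table and gave Hif1a adjusted P-values of 0.53, 0.472 and 0.255. Genotype differences were small throughout, with a log2 fold change between -0.23 (Ldhb) and 0.32 (Ankrd37), and their 95% intervals had a median half-width of 0.23 on the log2 scale.

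**Figure D2:**
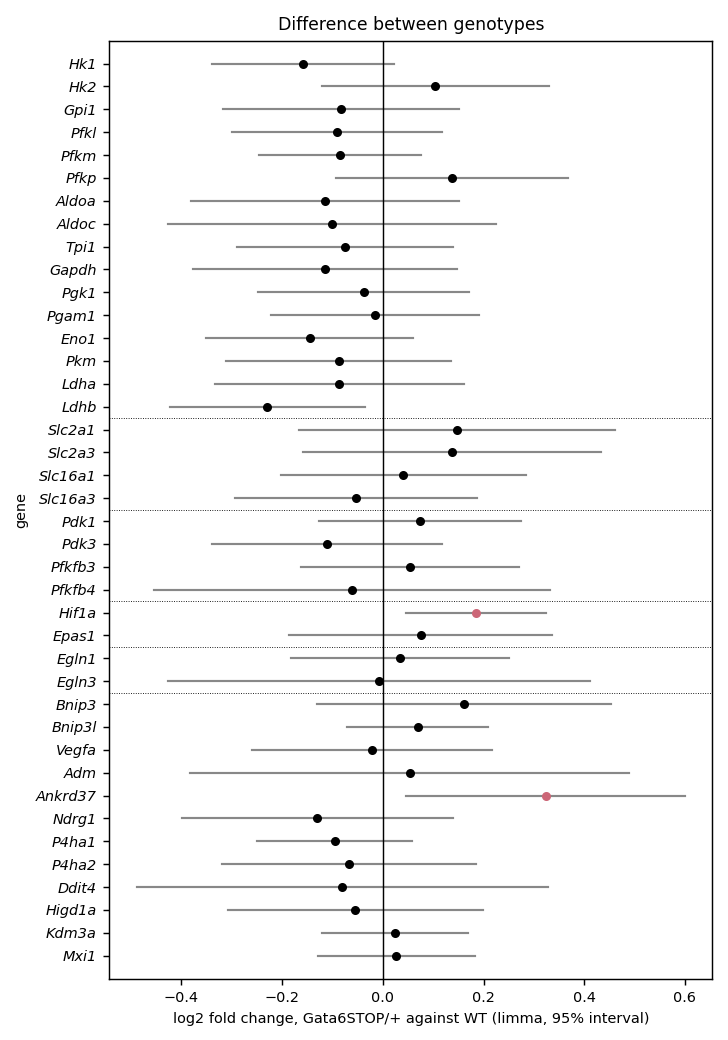
Log2 fold change of log2(CPM + 0.5), Gata6STOP/+ (4 pools) against WT (3 pools), with its 95% interval from limma for each member; red points mark genes whose pools did not overlap between genotypes. Only the intervals of Ldhb, Hif1a and Ankrd37 leave out 0, and none of these 3 passed after adjustment over 14732 genes.

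Of the 16 enzymes, 14 had a lower mean in Gata6STOP/+ and 2 (Hk2 and Pfkp) a higher one, with a median log2 fold change of -0.09 where the median of all genes was -0.0007. None passed the test. Hk1, the constitutive hexokinase, was at 393.6, 380.0 and 360.2 CPM in WT and at 293.0, 373.5, 351.0 and 341.2 CPM in Gata6STOP/+. The mutant value was low in replicate 1 and the groups overlapped at 360.2 to 373.5 CPM, with a log2 fold change of -0.16 ± 0.08 (SE, limma adjusted P=0.673). Eno1, the enolase, ran from 1656 to 1909 CPM in WT and from 1419 to 1741 CPM in the mutant pools, a log2 fold change of -0.15 ± 0.09 (SE, limma adjusted P=0.743). The 11 other enzymes with a lower mean lay between -0.12 (Aldoa) and -0.02 (Pgam1), and Hk2, the inducible hexokinase, and Pfkp were at 0.10 and 0.14. For Ldha the 95% interval allowed 0.794 to 1.12 times the WT level, and for Pkm 0.806 to 1.10 times.

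Ldhb (ENSMUSG00000030246, chr6:142490249-142507957 in GRCm38), the heart-type lactate dehydrogenase subunit, was the enzyme with the largest difference. It was at 210.4, 242.2 and 204.7 CPM in WT and at 162.1, 206.7, 188.1 and 190.7 CPM in Gata6STOP/+. WT replicate 4 was the highest pool, Gata6STOP/+ replicate 1 the lowest, and 1 mutant pool lay above 1 WT pool. The log2 fold change was -0.23 ± 0.09 (SE, limma unadjusted P=0.024, adjusted P=0.534). It was -0.09 without those 2 pools, an alternative chosen after seeing the data.

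The enzyme values differed between pools of the same genotype, and the size of the genotype difference depended on which pool was left out. Gata6STOP/+ replicate 1 was the lowest of the 7 pools for 13 of the 16 enzymes, against 2906 of all 14732 genes (19.7%), and all 16 enzymes lay below their own mean there. WT replicate 3 was the highest pool for 9 of the 16, against 19.4% of all genes. Summed over the 16 enzymes, the pools held 14769, 12475 and 13203 CPM in WT replicates 3, 4 and 5. The mutant pools 1, 3, 4 and 5 held 10901, 14140, 13060 and 12792 CPM, so 3 of the 4 lay within the WT range. Without Gata6STOP/+ replicate 1 the median log2 fold change of the enzymes was -0.02, with 11 lower and 5 higher. Without WT replicate 3 it was -0.0042, with 10 lower and 6 higher, and without WT replicate 4 it was -0.15. In that fit, and without WT replicate 5 or Gata6STOP/+ replicate 3, 4 or 5, 14 enzymes were lower, with medians from -0.15 to -0.10.

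The same mutant pool was low in cardiomyocyte transcripts, which in the OFT come from its muscular wall. Gata6STOP/+ replicate 1 was the lowest pool for 10 of 11 cardiomyocyte markers, Ttn being similar to the others, and their summed CPM was 19025 there and 23964 to 27535 in the 6 others. Actc1, the cardiac actin, was at 3688 CPM there and at 4846 to 6186 CPM elsewhere. The part of these markers in the enzyme values was not tested.

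**Figure D3:**
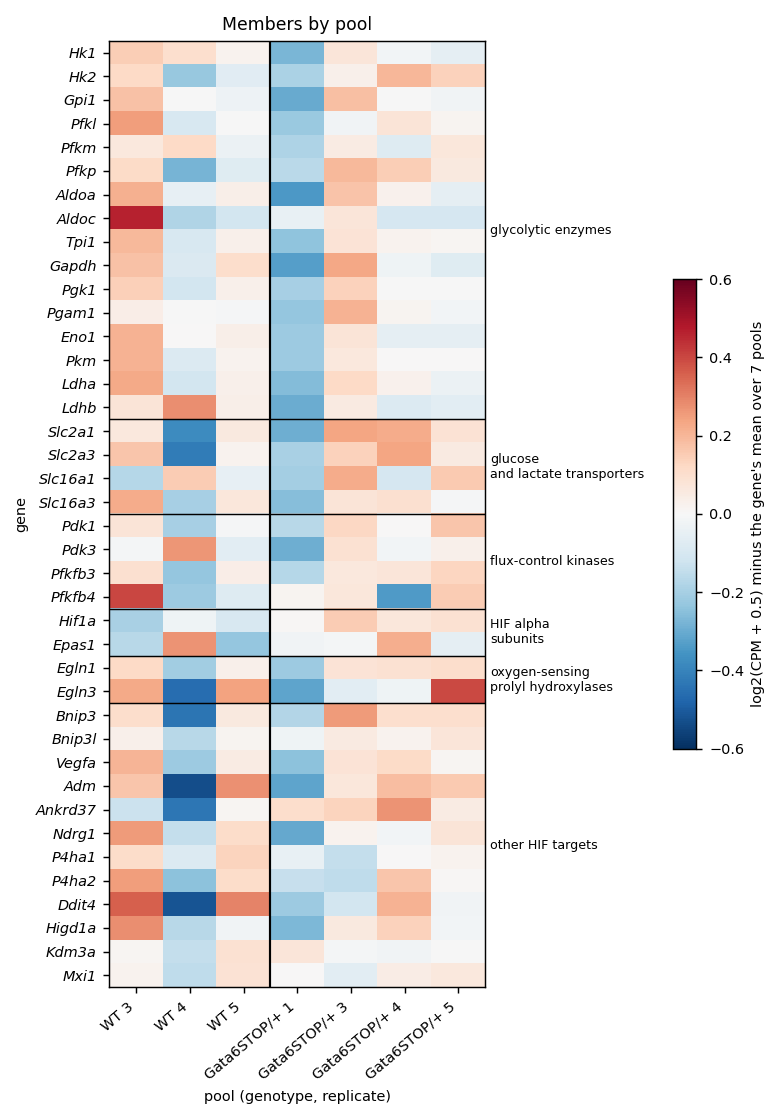
Deviation of log2(CPM + 0.5) from the mean of the gene over 7 pools, with members in rows by group and pools in columns (WT left, Gata6STOP/+ right of the line); red is above and blue below the mean. The column of Gata6STOP/+ replicate 1 is blue for all 16 enzymes, that of WT replicate 4 for all 12 other HIF targets, and that of WT replicate 3 red for all 16 enzymes.

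The 4 transporters had a median log2 fold change of 0.09, 3 of them higher and Slc16a3 lower in Gata6STOP/+, and none passed the test. Slc2a1 was at 767.4, 566.3 and 765.5 CPM in WT and at 599.1, 867.1, 856.3 and 780.7 CPM in Gata6STOP/+. The low values were WT replicate 4 and Gata6STOP/+ replicate 1, and the pools of the 2 genotypes overlapped. Its log2 fold change was 0.15 ± 0.14 (SE, limma adjusted P=0.828), 0.002 without WT replicate 4 and 0.27 without Gata6STOP/+ replicate 1. Slc2a3 was likewise lowest in WT replicate 4, at 90.1 CPM, and at 105.3 to 142.2 CPM in the 6 other pools. Of the 4 kinases, Pdk1 and Pfkfb3 were higher and Pdk3 and Pfkfb4 lower, between -0.11 and 0.07 on the log2 scale.

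Hif1a (ENSMUSG00000021109, chr12:73901375-73947530 in GRCm38), which encodes the alpha subunit of HIF-1, had the smallest P-value of the 40 members. It was at 278.4, 313.2 and 298.0 CPM in WT and at 319.9, 354.5, 333.9 and 340.1 CPM in Gata6STOP/+. Every mutant pool lay above every WT pool, the nearest being WT replicate 4 and Gata6STOP/+ replicate 1. The mutant mean was 337 ± 14.3 CPM (SD, n = 4) and the WT mean 297 ± 17.4 CPM (SD, n = 3), a log2 fold change of 0.19 ± 0.06 (SE, limma unadjusted P=0.014, adjusted P=0.466). It stayed between 0.14 and 0.23 when any 1 pool was left out and was 0.25 without both WT replicate 4 and Gata6STOP/+ replicate 1. Gm49321, a gene on the same strand that overlaps Hif1a, was at 2.71 CPM on average. The other alpha subunit, Epas1, was at 31.98, 43.5 and 30.6 CPM in WT and at 35.4, 35.6, 42.0 and 34.6 CPM in Gata6STOP/+, with full overlap.

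The hydroxylases that destine the alpha subunit for destruction had overlapping pools. Egln1 was at 197.8, 157.3 and 186.1 CPM in WT and at 156.3, 192.5, 194.2 and 195.8 CPM in Gata6STOP/+, with 1 low pool in each group. Egln3 was at 25.6, 15.7 and 25.9 CPM in WT and at 17.4, 20.8, 21.4 and 28.8 CPM in the mutants. Their log2 fold changes were 0.03 ± 0.10 (SE) and -0.01 ± 0.19 (SE).

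Ankrd37 (ENSMUSG00000050914, chr8:45996902-46005707 in GRCm38), an ankyrin-repeat gene known as a HIF target, was the other member whose pools did not overlap. It was at 7.53, 6.004 and 8.34 CPM in WT and at 8.95, 9.13, 10.1 and 8.58 CPM in Gata6STOP/+. WT replicate 4 was the lowest pool, and the nearest pools of the 2 groups differed by less than the SD within either group. The log2 fold change was 0.32 ± 0.13 (SE, limma unadjusted P=0.026, adjusted P=0.542), and it was 0.20 without WT replicate 4. Ankrd37 rested on 149 to 295 reads per pool. Ufsp2, which overlaps it on the opposite strand, was at 34.1 CPM, and the library kit marks strand, but how the counting used strand is not given in the sources used here.

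**Figure D4:**
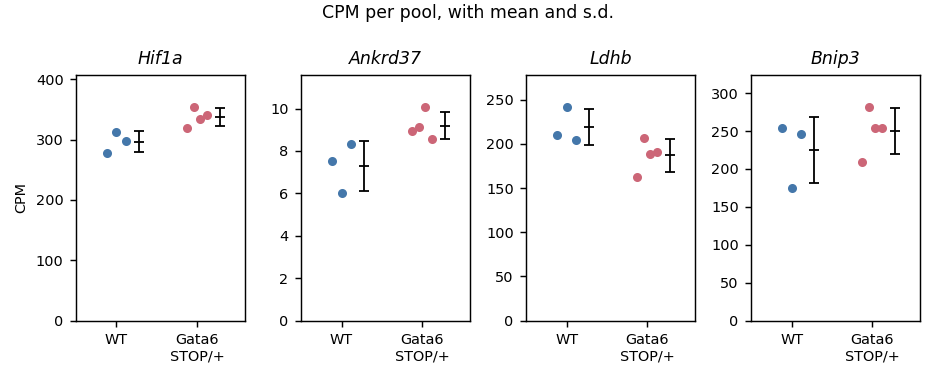
CPM of Hif1a, Ankrd37, Ldhb and Bnip3 in each of 3 WT and 4 Gata6STOP/+ pools (axes start at 0), with the mean and SD of each genotype beside the points. The mutant pools of Hif1a (319.9 to 354.5 CPM) and Ankrd37 (8.58 to 10.1 CPM) lie above the WT pools, and those of Ldhb and Bnip3 overlap them.

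The other HIF targets were divided in direction. Over all 12 targets, Ankrd37 included, 6 were higher and 6 lower in Gata6STOP/+, with a median log2 fold change of 0.0008. Bnip3 was at 254.3, 174.4 and 246.5 CPM in WT and at 209.2, 282.2, 253.5 and 254.0 CPM in Gata6STOP/+, with WT replicate 4 the lowest and a log2 fold change of 0.16 ± 0.13 (SE, limma adjusted P=0.796) that was -0.01 without that pool. Vegfa was at 164.1, 122.3 and 147.3 CPM in WT and at 119.9, 150.6, 154.0 and 143.7 CPM in the mutants, with overlapping pools. Ddit4, an inhibitor of mTOR signalling induced by hypoxia and stress, was at 62.5, 33.8 and 60.03 CPM in WT and at 41.8, 45.1, 56.3 and 48.0 CPM in Gata6STOP/+. Its WT pools were at both ends of the range, and its log2 fold change went from -0.08 to -0.36 without WT replicate 4. P4ha1 and P4ha2, which hydroxylate collagen, had log2 fold changes of -0.10 and -0.07. Bnip3l and Adm were at 0.07 and 0.05, and Ndrg1 and Higd1a, a mitochondrial protein gene, at -0.13 and -0.05. Kdm3a, a histone demethylase, and Mxi1, which opposes MYC, were among the members that varied least, with log2 fold changes of 0.02 and 0.03.

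WT replicate 4 was the lowest of the 7 pools for 8 of the 12 other HIF targets and for 16 of the 40 members, against 1731 of all 14732 genes (11.7%). All 12 of these targets lay below their own mean in that pool, by 0.27 on the log2 scale on average, while the enzymes lay 0.05 below. In Gata6STOP/+ replicate 1 the enzymes lay 0.23 and the other HIF targets 0.13 below their means. The 4 transporters lay below their means by similar amounts in both pools, by 0.24 in Gata6STOP/+ replicate 1 and by 0.21 in WT replicate 4. Without WT replicate 4 the median log2 fold change of the 16 other HIF members turned from 0.03 to -0.10, and 8 of the 40 members were higher in Gata6STOP/+ instead of 16. Without WT replicate 3, 26 of 40 were higher, without Gata6STOP/+ replicate 1, 23, and without WT replicate 5, 17.

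WT replicate 4 also stood apart in markers of cell types. It was the lowest pool for 7 of 9 erythroid markers, against 11.7% of all genes, with a summed 2495 CPM against 2890 to 7675 CPM in the 6 others. Gata6STOP/+ replicate 1 and WT replicate 3 were also low in these markers, at 2890 and 2952 CPM. WT replicate 4 was also lowest for Krt8 and Krt18, at 69.9 CPM summed against 83.5 to 117 CPM. These were the only pharyngeal epithelium markers listed, without Epcam, Cdh1 and Pax9, so they are not read as a measure of that epithelium. WT replicate 4 was the highest pool for 4 of 7 endothelium and endocardium markers and for 4 of 11 cardiomyocyte markers, against 11.9% of all genes. For cardiomyocyte markers it did not stand alone. WT replicate 3 was also highest for 4 of the 11 and Gata6STOP/+ replicate 3 for 3, against 19.4% and 15.5% of all genes. The cardiomyocyte marker Myl7, at 1049 CPM in WT replicate 4, lay inside the 1039 to 1601 CPM of the other pools. Of the endothelium and endocardium markers, Npr3 was at 100.1 CPM in WT replicate 4 and at 34.2 to 46.8 CPM elsewhere. The endocardial gene Nfatc1, at 91.3 CPM there, lay inside the 83.6 to 125.9 CPM of the other pools, and Tek and Pecam1 also lay inside theirs. Nppa, a marker of atrial and trabecular muscle, was at 173.8 CPM against 3.3 to 32.1 CPM. The part of these cell types in the HIF target values was not tested. Over the 9 erythroid markers, all were higher on average in Gata6STOP/+, with a median log2 fold change of 0.39 and none passing the test.

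**Figure D5:**
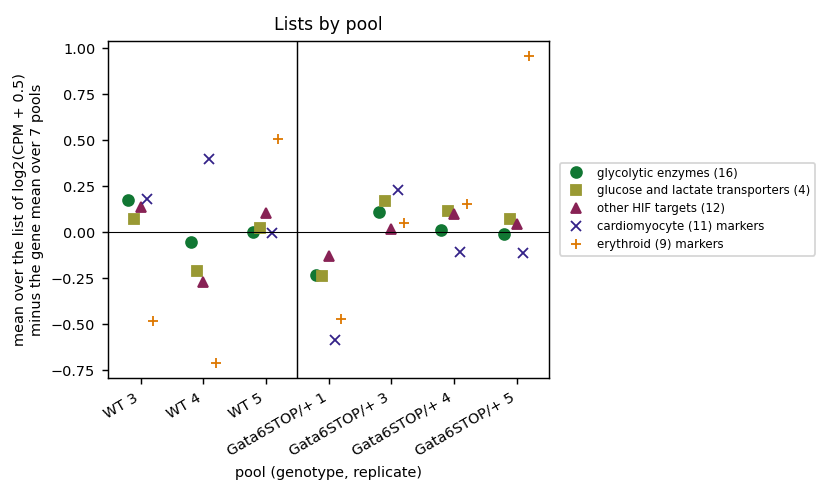
Mean over each list of the deviation of log2(CPM + 0.5) from the mean of the gene over 7 pools, for 3 member groups and 2 marker lists (number of genes in brackets), by pool. Gata6STOP/+ replicate 1 is low in the enzymes (-0.23) and in cardiomyocyte markers (-0.59), and less so in other HIF targets (-0.13). WT replicate 4 is low in other HIF targets (-0.27) and erythroid markers (-0.71). Erythroid markers are also low in WT replicate 3 (-0.48), where other HIF targets are at 0.14, and in Gata6STOP/+ replicate 1 (-0.47). The cardiomyocyte mean of WT replicate 4 (0.40) includes Nppa, at 173.8 CPM there. The summed CPM of the cardiomyocyte markers in that pool (26341) lay below that of WT replicate 3 (26681) and Gata6STOP/+ replicate 3 (27535).

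Genes around these pathways were read from 2 wider lists that hold no member. Of 49 further genes of glycolysis and pyruvate use, 41 were listed, of which 14 were higher and 27 lower in Gata6STOP/+, none with an unadjusted P under 0.05, with a median log2 fold change of -0.03. Of 45 further hypoxia-response genes, 41 were listed, 21 higher and 20 lower, with a median of 0.001. Pools did not overlap for 3 of these 41 (7.32%, against 8.47% of all genes), each higher in the mutants (4.31% of all genes) and none passing the test, so the share is near the background. Tfrc, the transferrin receptor that brings iron into cells, was at 149.9, 146.4 and 164.5 CPM in WT and at 173.8, 169.1, 183.0 and 178.0 CPM in Gata6STOP/+ (log2 fold change 0.20 ± 0.06 SE, limma adjusted P=0.419). Ero1l, an oxidase of protein folding, was at 101.6 to 110.0 CPM in WT and 111.4 to 123.5 CPM in the mutants (log2 fold change 0.15, limma adjusted P=0.579). Rbpj, the DNA-binding factor of Notch signalling, was at 91.5 to 92.3 CPM in WT and 93.8 to 109.4 CPM in the mutants (log2 fold change 0.13, limma adjusted P=0.653). Flt1, a VEGF receptor named after its value was seen, was at 50.2 to 60.5 CPM in WT and 58.0 to 74.2 CPM in the mutants (log2 fold change 0.29, limma adjusted P=0.436). Tfrc is also used by red cell precursors, whose summed markers were lowest in WT replicate 4 (2495 CPM) and next lowest in Gata6STOP/+ replicate 1 (2890 CPM). Their part in the Tfrc values was not tested.

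Reads of some members may be shared with near copies or overlapping genes. Pgam1-ps2 was at 26.8 to 75.5 CPM beside 602 to 819 CPM of Pgam1, and the listed copies Eno1b and Bnip3l-ps were at 3.05 to 5.76 and 8.37 to 16.4 CPM. Gm49759 overlaps Pkm on the same strand and was at 69.6 CPM on average, against 1607 CPM or more of Pkm. Pfkm, Pfkp, Tpi1 and Gapdh overlap genes on the opposite strand. The division of reads between such genes was made in the authors' read assignment, and levels of these members carry that uncertainty.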

How the data were processed

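Per the labels and the study's methods, polyA RNA from pooled E11.5 OFTs was sequenced with a strand-marking kit as 60-base single-end reads, and cutadapt, RSEM on GRCm38 and edgeR were used. The authors deposited CPM normalised by the trimmed mean of M values for 14732 genes, after a filter of 1 CPM or more in 3 or more of the pools. The methods give 3 pools of 4 OFT pairs per genotype, whereas the table holds 3 WT and 4 Gata6STOP/+ pools. The CPM values are whole multiples of 1 read (100% within 0.01), which gave the reads per pool; more reads mean less counting error.

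Genotypes were compared with limma 3.58.1 (R 4.3.3) on log2(CPM + 0.5), without covariates, in two-sided tests with Benjamini-Hochberg adjustment over all genes and a threshold of 0.05. Fold changes are on that scale, which understates those of low genes. Pools of 1 genotype differed from each other beyond sampling noise, and P-values measure only the spread between pools. Count tests on the recovered reads used edgeR 4.0.16 and DESeq2 1.42.0. Each test was tested on simulated data. Exon lengths came from GENCODE M21 (14716 of 14732 IDs found) and promoters from RefSeq.

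The members and lists were chosen with earlier results of these data known, and no P-value was adjusted over a list alone. Named genes were all members, up to 6 genes of each wider list that passed the test or whose groups did not overlap, and Gata6. Flt1, the cell type markers and the overlapping or copied genes named in the text were chosen outside this rule, after their values were seen.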

Additional observations from a re-analysis of the deposited data

Results flagged for a closer look

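Gaps within the 4 Gata6STOP/+ pools were examined for the 40 members and Gata6 by Dixon's criterion at 95%, which chance meets in about 1 of 20 groups. It was met by 2 of 41 genes. Egln1 was at 156.3 CPM in Gata6STOP/+ replicate 1, where the nearest mutant pool held 192.5 CPM, and that value lay beside the 157.3 CPM of WT replicate 4. Epas1 was at 42.0 CPM in Gata6STOP/+ replicate 4, where the nearest mutant pool held 35.6 CPM, and WT replicate 4 was higher still at 43.5 CPM. WT groups of 3 pools were not examined in this way.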

How the results depend on the processing

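No member passed an adjusted P of 0.05 under any alternative tried, and neither did a gene of the wider lists. Over all 14732 genes, 0 passed in limma (1187 with an unadjusted P under 0.05) and 0 in edgeR's quasi-likelihood test (1177 unadjusted), but 105 in edgeR's likelihood ratio test, 88 in DESeq2 and 1 with a constant of 0.1. Leaving out 1 pool gave 0 to 13 genes, 13 of them without WT replicate 4. Leaving out WT replicate 4 and Gata6STOP/+ replicate 1 together, chosen after seeing the data, gave 33. The median log2 fold change of the glycolytic members was -0.08 in the main fit, 0.002 without WT replicate 3 and -0.13 without WT replicate 4. That of the other HIF members was 0.03, 0.07 and -0.10 in the same fits. Shifts of both medians stayed below the SD between single pools, a limit that leaving out 1 pool can hardly exceed. Of the 40 members, 16 kept their direction under every alternative.

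Same-numbered pools did not deviate together (r of -0.01, -0.12 and -0.002 over genes for numbers 3, 4 and 5), so the numbers were not read as pairs. With a replicate block, 14 genes passed in limma and 118 in the likelihood ratio test, none of them members, and Gata6STOP/+ replicate 1 has no partner and drops out. Under that block the log2 fold changes of 7 members changed sign, to (limma, then likelihood ratio) 0.005172 and 0.005173 for Gpi1, 0.0233 and 0.02331 for Pgk1, 0.06071 and 0.06075 for Pgam1, 0.02401 and 0.02388 for Slc16a3, 0.09807 and 0.09975 for Egln3, 0.05705 and 0.05713 for Vegfa, and 0.02811 and 0.02823 for Higd1a. Without the 2 low pools together, Pgam1 was at 0.05446, Pdk3 at 0.07224, Adm at -0.08508, Kdm3a at -0.0618 and Mxi1 at -0.03866.

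Leaving out 1 pool turned the sign of 23 members, with these ranges of log2 fold change: Gpi1 -0.1545 to 0.005172, Pfkl -0.1632 to 0.01032, Aldoc -0.2195 to 0.1005, Pgk1 -0.1035 to 0.0233, Pgam1 -0.08731 to 0.06071, Ldha -0.1658 to 0.003968, Slc2a3 -0.03316 to 0.2587, Slc16a1 -0.03336 to 0.1288, Slc16a3 -0.169 to 0.04386, Pdk1 -0.004998 to 0.1396, Pfkfb3 -0.04646 to 0.1192, Pfkfb4 -0.1874 to 0.1221, Epas1 -0.01915 to 0.2313, Egln1 -0.06131 to 0.1122, Egln3 -0.2376 to 0.1124, Bnip3 -0.01194 to 0.2595, Vegfa -0.1369 to 0.07443, Adm -0.198 to 0.2058, P4ha2 -0.2088 to 0.03842, Ddit4 -0.3624 to 0.07494, Higd1a -0.153 to 0.06981, Kdm3a -0.04115 to 0.07615 and Mxi1 -0.04214 to 0.07702. The cause was not tested. With the filter at a mean of 5 CPM, Pfkfb4 was not tested.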
